A study of Mus musculus with 16 samples.

Results

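The comparison described here is the difference between genotypes in the liver's response to fasting: the log2 change from fed to fasted in Ppard knockout mice minus the same change in wild-type mice, taken for every gene measured. All 16 arrays of the study entered it, and 19935 genes were tested. The mice were male, on a mixed Sv129/C57Bl/6 background, and no age was stated for them. The 4 groups were 4 wild-type mice with food, 5 wild-type mice fasted for 24 h, 4 PPARβ/δ knockout mice with food and 3 PPARβ/δ knockout mice fasted for 24 h, with 1 whole-transcript array of liver RNA per mouse. The deleted part of Ppard, and whether wild-type mice were littermates of the knockouts, were not stated in the labels.

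Ppard encodes PPARβ/δ, a receptor of the nuclear family that binds fatty acids and controls genes of lipid and glucose use in many tissues. In fasting, the liver takes up fatty acids from fat tissue, oxidises them and makes ketone bodies and glucose, a switch in which the related receptor PPARα has a leading part. The question of the comparison is which steps of that switch differ in size between mice with and without PPARβ/δ. A value above 0 means that the knockout value lay higher after fasting, relative to its own fed level, than the wild-type value did. It can arise from a smaller fall, a larger rise, or a genotype difference that was present in fed mice only.

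Of 19935 genes, 2 passed the test of this difference at an adjusted p under 0.05 (0.01%), Hsd3b5 and Tc2n, and both values were above 0. None of the values below 0 passed in limma, where 1324 genes (6.64%) had an unadjusted p under 0.05 below 0 and 1117 (5.6%) above 0. By comparison, 1838 genes (9.22%) passed for fasting in wild-type and 732 (3.67%) in knockout mice, contrasts that share their arrays with the difference. The next 48 genes shared an adjusted p of 0.15. A size of at least 1 on the log2 scale was reached by 161 genes, 100 of them above 0 and 61 below. The genotype difference had a median standard error of 0.15 on the log2 scale over all genes, and its 95% interval reached a median of 0.31 to either side. That interval lay within -1 and 1 for 18963 genes (95.1%) and within -0.5 and 0.5 for 11202 (56.2%). Among the 217 genes that changed at least 2-fold with fasting in wild-type mice, it lay within -1 and 1 for 77. Over all genes tested, with no filter on intensity, a 2-fold difference between the responses thus lay outside the interval for most. Among the 217 that changed with wild-type fasting it did not for most.

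As a check of tissue, all 11 hepatocyte markers measured were bright, with mean log2 intensities of 9.31 to 12.30, and their summed intensity ran from 35350 to 40750 over all mice. Ppard itself, measured by a probe set that may lie outside the deleted part and so checks no label, had a mean log2 intensity of 5.10 ± 0.35 (SD, n = 4) with food and 4.56 ± 0.10 (SD, n = 5) after fasting in the wild-type groups. In the knockout groups it was 4.71 ± 0.28 (SD, n = 4) with food and 4.48 ± 0.11 (SD, n = 3) after fasting. Its genotype difference in the fasting response was 0.31 ± 0.22 (standard error, adjusted p = 0.56). For Ppara, the receptor of the hepatic fasting programme, the difference was -0.10 ± 0.26 (adjusted p = 0.895), and for Pparg, the receptor of fat storage, 0.04 ± 0.16 (adjusted p = 0.939). Knockout fed mice 1 and 4 stood apart from the other fed mice in acute phase and stress genes, described below, so key values are also given without them. For Ppard, Ppara and Pparg the differences were then 0.55 (adjusted p = 0.384), -0.42 (adjusted p = 0.463) and -0.05 (adjusted p = 0.934).

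Hsd3b5 encodes a 3-ketosteroid reductase of the hydroxysteroid dehydrogenase family, made in the liver of adult male mice under control of growth hormone. Among wild-type mice, its log2 intensity was 8.50, 8.30, 8.33 and 8.24 with food and 5.48, 4.47, 4.76, 4.73 and 3.76 after fasting. Among knockouts it was 8.27, 8.42, 8.74 and 8.03 with food, and after fasting 7.89, 7.14 and 7.10. The genotypes overlapped when fed, whereas every knockout fasted mouse lay above every wild-type fasted mouse. Hsd3b5 fell by 3.70 ± 0.25 with fasting in wild-type mice, a 13.02-fold drop (adjusted p = 2.39e-07). In knockout mice the change was -0.99 ± 0.29, or 1.98-fold, which did not pass (adjusted p = 0.0689). The difference between the responses was 2.72 ± 0.38 on the log2 scale (95% interval 1.91 to 3.52), or 6.57-fold, with an adjusted p of 0.0284. Between genotypes, fed mice differed by 0.02 (adjusted p = 0.981; over all genes, 0.677% passed in fed mice), and fasted mice by 2.74 (adjusted p = 0.000367; 0.537% of all genes passed). Without knockout fed mice 1 and 4 the difference between the responses was 2.50 and did not pass (adjusted p = 0.167). Leaving out 1 mouse at a time gave 2.46 to 2.93, and the adjusted p stayed under 0.05 in 7 of 16 such fits. It lay between 0.0648 and 0.0995 without wild-type fed mouse 3 or 4, wild-type fasted mouse 3 or 4, knockout fed mouse 1 or 4, or any of the knockout fasted mice, where the value was 2.46 to 2.85.

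Tc2n encodes a nuclear protein with tandem C2 domains. Among wild-type mice, its log2 intensity was 2.38, 2.02, 2.49 and 2.37 with food and 1.90, 2.01, 1.92, 1.78 and 2.01 after fasting. Among knockouts it was 1.83, 1.93, 2.13 and 1.91 with food and 2.49, 2.54 and 2.49 after fasting. Wild-type fed and knockout fasted mice were thus high, and wild-type fasted and knockout fed mice low, with wild-type fed mouse 2 near the low groups. All 16 values lay under 2.79, the 40th percentile of gene means, so the gene was dim throughout. Tc2n fell by 0.39 ± 0.09 with fasting in wild-type mice (adjusted p = 0.0102) and rose by 0.56 ± 0.10 in knockout mice (adjusted p = 0.00569). The difference between the responses was 0.95 ± 0.14 (95% interval 0.66 to 1.24, adjusted p = 0.0284). Without knockout fed mice 1 and 4 it was 0.87 and did not pass (adjusted p = 0.177), nor did the knockout change, at 0.47 (adjusted p = 0.0863). With 1 mouse left out at a time it ran from 0.89 to 1.05 and passed in 6 of 16 fits. It did not pass, at an adjusted p of up to 0.171, without wild-type fed mouse 3 or 4, wild-type fasted mouse 1, 3 or 4, knockout fed mouse 1 or 4, or any knockout fasted mouse.

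Promoter windows are shown for these genes and for Per1, a clock gene described below, because the sequence just before a start site is where receptors and clock factors often bind. The sequences are the 250 bases before each start site in RefSeq's annotation of GRCm38.p6, written 5′ to 3′ on the gene's strand. Hsd3b5 lies at chr3:98645535-98645784 on the minus strand, the second listed start of Tc2n at chr12:101711574-101711823 on the minus strand, and the first listed start of Per1 at chr11:69098699-69098948 on the plus strand. Capitals mark matches, on either strand, to any of 8 motifs.
Hsd3b5: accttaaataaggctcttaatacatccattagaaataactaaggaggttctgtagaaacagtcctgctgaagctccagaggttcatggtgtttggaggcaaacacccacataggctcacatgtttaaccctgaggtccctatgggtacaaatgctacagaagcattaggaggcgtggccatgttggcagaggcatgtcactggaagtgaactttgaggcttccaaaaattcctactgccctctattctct
Tc2n: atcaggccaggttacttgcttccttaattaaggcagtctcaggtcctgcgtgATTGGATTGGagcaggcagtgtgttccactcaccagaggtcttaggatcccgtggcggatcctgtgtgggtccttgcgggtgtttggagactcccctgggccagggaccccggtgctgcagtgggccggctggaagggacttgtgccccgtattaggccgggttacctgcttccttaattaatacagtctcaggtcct
Per1: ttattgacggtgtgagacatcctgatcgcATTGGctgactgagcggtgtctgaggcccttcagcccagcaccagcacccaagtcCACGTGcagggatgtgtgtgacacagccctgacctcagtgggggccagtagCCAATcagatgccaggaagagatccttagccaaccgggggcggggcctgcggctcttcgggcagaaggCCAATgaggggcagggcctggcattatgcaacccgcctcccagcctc
The motifs searched, with the share of 32851 promoter windows of this length that held each, were the first part of a PPAR-RXR repeat AGGNCAAAG (1.8%), the interferon element GAAANNGAA (7.13%), the sterol element CACNCCAC (5.29%) and the E-box CACGTG (6.02%). The others were the D-box TTATGTAA (0.819%), the cAMP element TGACGTCA (1.55%), the NF-Y box CCAAT (33.8%) and the STAT element TTCNNNGAA (7.02%). Matches to different motifs did not overlap in the windows printed. The Hsd3b5 window and the window of the first listed Tc2n start held none of these letters. The printed Tc2n window held CCAAT on the opposite strand 2 times, and the printed Per1 window held 1 E-box and 3 NF-Y boxes. Of the 13 genes named by rule, 12 had a window in the table, and the PPAR-RXR letters were in none of their windows.

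**Figure D1:**
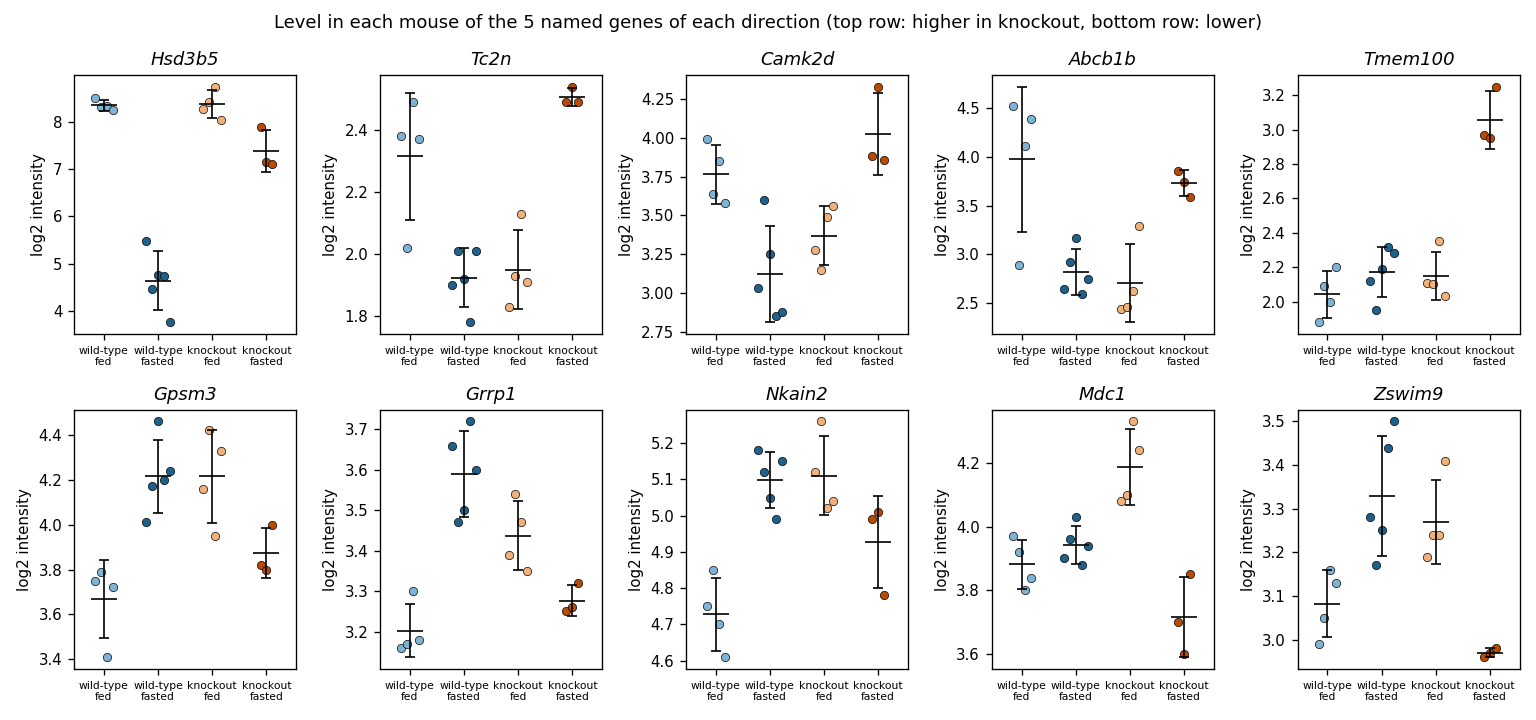
Log2 intensity in each mouse (points) for the 5 named genes with a difference above 0 (top row) and below 0 (bottom row), by group, with the mean and SD as bars. Hsd3b5 fell with fasting in wild-type mice while the knockout fasted mice stayed at 7.10 and above. Of the genes shown, only Hsd3b5 and Tc2n had a difference that passed the adjusted test.

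The other 8 genes taken by rule did not pass, each with an adjusted p of 0.15, and are given as values. Camk2d, a subunit of the calcium/calmodulin-dependent protein kinase II, was measured at a log2 intensity of 3.58 to 3.99 in the wild-type mice with food and 2.85 to 3.60 in those without. Its knockout values were 3.15 to 3.56 with food and 3.88, 4.33 and 3.86 after fasting. The knockout fasted mice lay above all knockout fed and all wild-type fasted mice, and the difference of responses was 1.30 ± 0.23 (95% interval 0.81 to 1.78). Abcb1b encodes a P-glycoprotein that pumps drugs out of cells. Its values were 4.52, 2.89, 4.11 and 4.39 in the fed wild-type group, 2.59 to 3.17 in wild-type fasted mice, 2.44 to 3.29 in knockout fed mice and 3.59 to 3.86 in knockout fasted mice. Its difference was 2.19 ± 0.40 (95% interval 1.36 to 3.03), with wild-type fed mouse 2 low in its group. Without that mouse the difference was 2.56 and passed (adjusted p = 0.000813), the only fit with 1 mouse left out in which it did. Tmem100, a membrane protein of endothelial cells, was dim outside the knockout fasted mice, at 1.88 to 2.35, and 2.95 to 3.25 within them. Tmem100 rose by 0.91 ± 0.11 with fasting in knockout mice (adjusted p = 0.000235), and its difference of responses was 0.78 ± 0.15.

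Among the genes taken by rule with a value below 0, Gpsm3, a modulator of G-protein signalling, had the smallest unadjusted p, at -0.89 ± 0.17. Its log2 intensity was 3.41 to 3.79 in wild-type fed, 4.01 to 4.46 in wild-type fasted, 3.95 to 4.42 in knockout fed and 3.80 to 4.00 in knockout fasted mice. Gpsm3 rose by 0.55 ± 0.11 with fasting in wild-type mice (adjusted p = 0.00396), and the knockout change was -0.34 ± 0.13 (adjusted p = 0.167). Grrp1, a glycine- and arginine-rich protein, and Nkain2, a partner of the sodium pump, had differences of -0.54 ± 0.10 and -0.56 ± 0.12. Both rose with fasting in wild-type mice, by 0.38 and 0.37. Mdc1, a mediator of the DNA damage checkpoint, and Zswim9, a zinc finger protein, had differences of -0.53 ± 0.11 and -0.55 ± 0.11. Mdc1 fell by 0.47 ± 0.08 with fasting in knockout mice (adjusted p = 0.00452), while the wild-type change was 0.06.

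Genes were also sorted by the signs of their 2 fasting changes. Over all genes tested, the fasting change had opposite signs in the genotypes for 47.0%, the same sign and a larger size in wild-type mice for 28.9%, and the same sign and a larger size in knockout mice for 24.1%. Among the 2441 genes with an unadjusted p under 0.05 for the difference (12.2%), these shares were 80.3%, 13.3% and 6.43%. Changes of opposite sign add up in the difference, so choosing genes by its p-value favours opposite signs. Only 9.22% of genes passed for fasting in wild-type and 3.67% in knockout mice, so most signs belong to changes that did not pass. The shares are therefore given as a description only.

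Among the gene lists, the male-biased liver genes had the highest median difference of the 26 pathway lists. These genes, which include Hsd3b5, are made at a higher level in male than in female mouse liver under the pulsed release of growth hormone. Their median was 0.39 over 28 genes measured, against -0.03 over all genes, and 25 lay above 0, as did 44.6% of all genes. Besides Hsd3b5, which passed after adjustment, another 10 had an unadjusted p under 0.05, all above 0, so that 11 of 28 (39.3%) stood against 5.6% of all genes in that direction. The list median was 0.44 without knockout fed mice 1 and 4, and 0.34 to 0.48 with each mouse left out in turn. The median fasting change of these genes was -0.58 in wild-type and -0.07 in knockout mice. Between genotypes, knockout minus wild-type, their median was -0.17 with food and 0.29 after fasting. The mean level of the list in each mouse, relative to each gene's mean, was 0.22 to 0.44 in wild-type fed, -0.62 to 0.13 in wild-type fasted, 0.00 to 0.18 in knockout fed and -0.10 to 0.17 in knockout fasted mice. Wild-type fasted mouse 1 was the mouse at 0.13, and the other 4 wild-type fasted mice lay below every knockout mouse.

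The members with the smallest p after Hsd3b5, chosen after their values were seen, were Serpina12, Slco1a1 and Mup21. Serpina12 encodes vaspin, a serine protease inhibitor. Its log2 intensity was 5.02, 6.48, 6.87 and 6.18 in wild-type fed, 4.50, 3.27, 3.29, 3.68 and 3.58 in wild-type fasted, 3.56, 4.40, 5.37 and 3.71 in knockout fed, and 4.77, 4.40 and 4.90 in knockout fasted mice. The wild-type fed mice were the high group except mouse 1, which lay inside the knockout fed range. Serpina12 fell by 2.47 ± 0.38 with fasting in wild-type mice (adjusted p = 0.000477), and its difference of responses was 2.90 ± 0.57 (adjusted p = 0.15), or 2.28 without knockout fed mice 1 and 4. With 1 mouse left out, the difference passed without wild-type fed mouse 1 (3.28, adjusted p = 0.0318) or knockout fed mouse 3 (3.27, adjusted p = 0.0248). Slco1a1, an organic anion transporter of the hepatocyte membrane, ran from 9.97 to 10.50 in wild-type fed and from 9.09 to 9.56 in wild-type fasted mice, and from 9.71 to 10.28 over both knockout groups. Slco1a1 fell by 0.88 ± 0.13 with wild-type fasting (adjusted p = 0.000366). Its knockout change was 0.07 ± 0.15, and the difference was 0.96 ± 0.20 (adjusted p = 0.15). Mup21, a urinary pheromone-binding protein, was lower in knockout than in wild-type fed mice by 1.46 (adjusted p = 0.0361), and its difference of responses was 1.93 ± 0.44 (adjusted p = 0.153). Elovl3, a fatty acid elongase, and Cyp7b1, an oxysterol hydroxylase, had differences of 0.90 ± 0.32 and 0.86 ± 0.36.

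**Figure D2:**
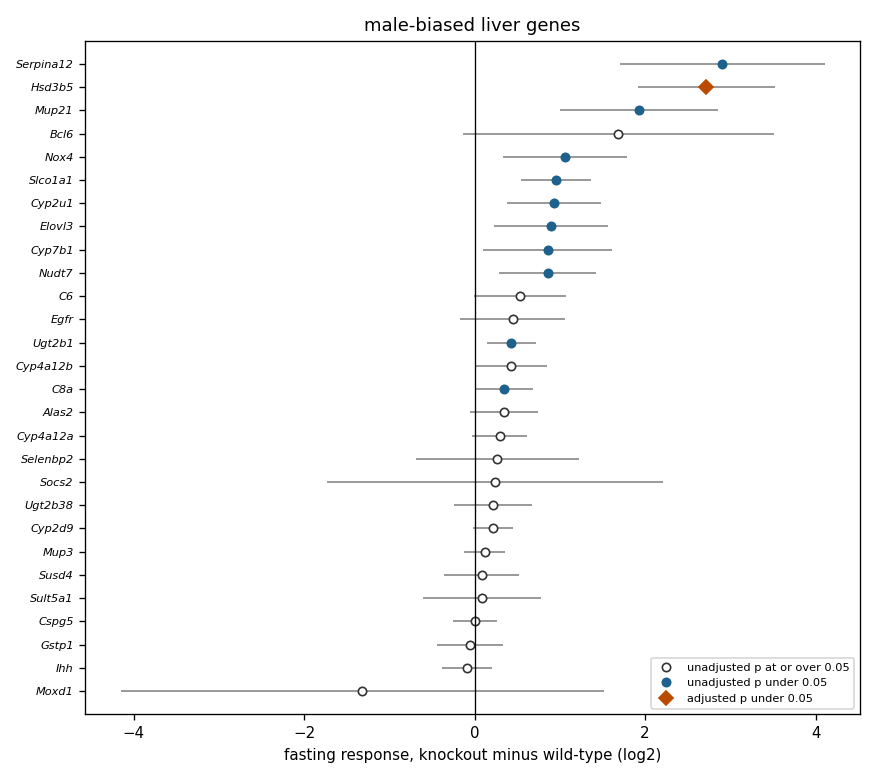
Difference of the fasting responses, knockout minus wild-type (log2), for the 28 male-biased liver genes measured, with 95% intervals as lines. Hsd3b5 is the 1 gene that passed after adjustment, and 25 of the points lie above 0 (44.6% of all genes do).

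The female-biased liver genes had a median difference of -0.10 over 26 genes measured, and 4 had an unadjusted p under 0.05 below 0 (15.4%, against 6.64% of all genes) and 0 above 0. The largest of these was Cyp17a1, the steroid 17-hydroxylase, at -2.15 ± 0.92 (adjusted p = 0.36). Its log2 intensity was 4.35, 6.75, 4.21 and 5.32 in wild-type fed, 9.67, 7.29, 8.22, 8.48 and 6.05 in wild-type fasted, 7.73, 8.38, 7.45 and 8.24 in knockout fed and 8.71, 7.65 and 9.40 in knockout fasted mice. Only the wild-type fed mice were low as a group, with wild-type fed mouse 2 above wild-type fasted mouse 5. Of the female-biased list, Cyp4a10, Acot3, Abcd2 and Vldlr also belong to the PPAR target and peroxisomal list below, so these lists are not independent. Genes of the growth hormone and IGF1 axis itself had a median of 0.17 over 20 measured, and 0.03 without wild-type fasted mouse 5. At an unadjusted p under 0.05, 2 of the 20 lay above 0 and 2 below, against 5.6% and 6.64% of all genes. The value was 0.21 ± 0.15 for Igf1 and 0.22 ± 0.17 for Ghr, the growth hormone receptor.

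Of the Hsd3b family, 6 genes were measured. Hsd3b2 had a difference of 2.95 ± 0.58 that did not pass (adjusted p = 0.15), and the fed wild-type group had log2 intensities of 9.07, 8.73, 9.01 and 8.74. All other mice lay at 7.40 or lower: 4.87 to 6.65 in wild-type fasted and 5.52 to 7.40 in knockout fasted mice, with a knockout fed mean of 6.24 ± 0.66 (SD, n = 4). Knockout minus wild-type, Hsd3b2 differed by -2.65 in fed mice (adjusted p = 0.0052) and by 0.30 in fasted mice (adjusted p = 0.861), whereas in Hsd3b5 the fasted mice differed more. With knockout fed mice 1 and 4 left out, that fed difference was -2.35 and did not pass (adjusted p = 0.0649). Hsd3b3 was higher in knockout mice in both states, by 1.64 fed and 2.14 fasted, and its difference of responses was 0.50 ± 0.31 (adjusted p = 0.519). The values for Hsd3b1, Hsd3b6 and Hsd3b7 were -0.22, -0.01 and 0.34. Several of these genes are close copies of one another, and cross-hybridisation between their probe sets was not tested.

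PPAR target and peroxisomal genes, which carry out and supply fatty acid oxidation, had a median fasting change of 0.92 in wild-type and 0.76 in knockout mice. The median of their differences was -0.17 over 51 genes measured, and 38 lay below 0, as did 55.4% of all genes. At an unadjusted p under 0.05, 10 lay below 0 (19.6%, against 6.64% of all genes) and 1 above. None passed after adjustment. Without knockout fed mice 1 and 4 the median was -0.22. At an unadjusted p under 0.05, 9 then lay below 0 (6.53% of all genes did so) and 1 above (4.51% of all genes). Members named here were chosen after their values were seen. Cyp4a14, a fatty acid omega-hydroxylase, was measured among wild-type mice at 5.67, 2.81, 4.20 and 2.81 (log2 intensity) with food and 11.94, 10.70, 10.70, 11.20 and 10.83 after fasting. Among knockouts it was at 7.58, 6.30, 7.18 and 4.24 with food and 11.26, 11.53 and 10.99 after fasting. The fasted groups overlapped, and 3 of 4 knockout fed mice lay above every wild-type fed mouse. Cyp4a14 rose by 7.20 ± 0.61 in wild-type and 4.93 ± 0.69 in knockout mice, and its difference was -2.27 ± 0.92 (95% interval -4.22 to -0.32, adjusted p = 0.342). Cyp4a10 and Cyp4a31 had differences of -1.79 ± 0.56 and -2.10 ± 0.71, and both were higher in knockout than in wild-type fed mice, by 2.07 (adjusted p = 0.0196) and 2.47 (adjusted p = 0.0277).

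Other members of this list handle acyl groups, lipids and retinol. Crat, the carnitine acetyltransferase, ran from 6.35 to 6.70 in wild-type fed, 8.10 to 8.58 in wild-type fasted, 6.57 to 6.88 in knockout fed and 7.71 to 8.19 in knockout fasted mice. Crat rose in both genotypes, by 1.87 ± 0.12 and 1.21 ± 0.13, and the difference was -0.66 ± 0.18 (adjusted p = 0.206). Mgll, the monoacylglycerol lipase, rose by 0.80 ± 0.09 in wild-type mice (adjusted p = 2.91e-05). Its knockout change was 0.28 ± 0.10 (adjusted p = 0.171) and the difference -0.52 ± 0.13. The peroxisomal thiolase Acaa1a and the retinol saturase Retsat each had a difference of -0.58. Cd36, the fatty acid translocase, was the member above 0 at an unadjusted p under 0.05. Cd36 was 5.86, 6.18, 6.27 and 7.11 in wild-type fed and 5.40 to 5.72 in wild-type fasted mice, and 6.29 to 6.74 over both knockout groups. With wild-type fasting it fell by 0.83 ± 0.18 (adjusted p = 0.00595), and its difference was 0.94 ± 0.27 (adjusted p = 0.231). Angptl4, an inhibitor of lipoprotein lipase and a known PPAR target, rose in both genotypes, by 1.35 and 1.15, with a difference of -0.19 (95% interval -0.80 to 0.42). Its knockout change did not pass without knockout fed mice 1 and 4, at 0.93 (adjusted p = 0.0604).

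Mitochondrial fatty acid oxidation and ketogenesis genes had a median difference of -0.07 over 24 measured, and 1 of 24 (4.17%, against 6.64%) lay below 0 at an unadjusted p under 0.05. Centring arrays on a common median moved it to 0.00 and the median of all genes from -0.03 to 0.05, so their distance stayed alike. Cpt1a, the rate-limiting carnitine palmitoyltransferase, rose by 1.39 ± 0.16 in wild-type and 1.27 ± 0.18 in knockout mice. The difference was -0.12 ± 0.25 with a 95% interval of -0.64 to 0.40. Fatty acid and triglyceride synthesis genes had a median of -0.17 over 35 measured, with 4 above 0 (11.4%, against 5.6%) and 4 below 0 (11.4%, against 6.64%) at an unadjusted p under 0.05. Fasn, the fatty acid synthase, fell in both genotypes, by 1.85 ± 0.15 in wild-type and by 2.48 ± 0.17 in knockout mice, and the difference was -0.64 ± 0.23 (adjusted p = 0.299). Thrsp, a lipogenic regulator, fell by 1.68 ± 0.38 in wild-type mice and fell by 3.15 ± 0.43 in knockout mice, a difference of -1.46 ± 0.57 (adjusted p = 0.324). Tkfc, the triokinase of fructose metabolism, was 8.35 to 8.54 in knockout fasted mice and 8.90 to 9.60 in all others. Tkfc fell by 0.75 ± 0.13 with fasting in knockout mice (adjusted p = 0.00482), and the difference was -0.81 ± 0.18 (adjusted p = 0.15). Cholesterol synthesis and uptake genes had a median of -0.24 over 19 measured, -0.14 without knockout fed mice 1 and 4, with 1 below 0 at an unadjusted p under 0.05, the lanosterol synthase Lss at -0.52 ± 0.24.

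**Figure D3:**
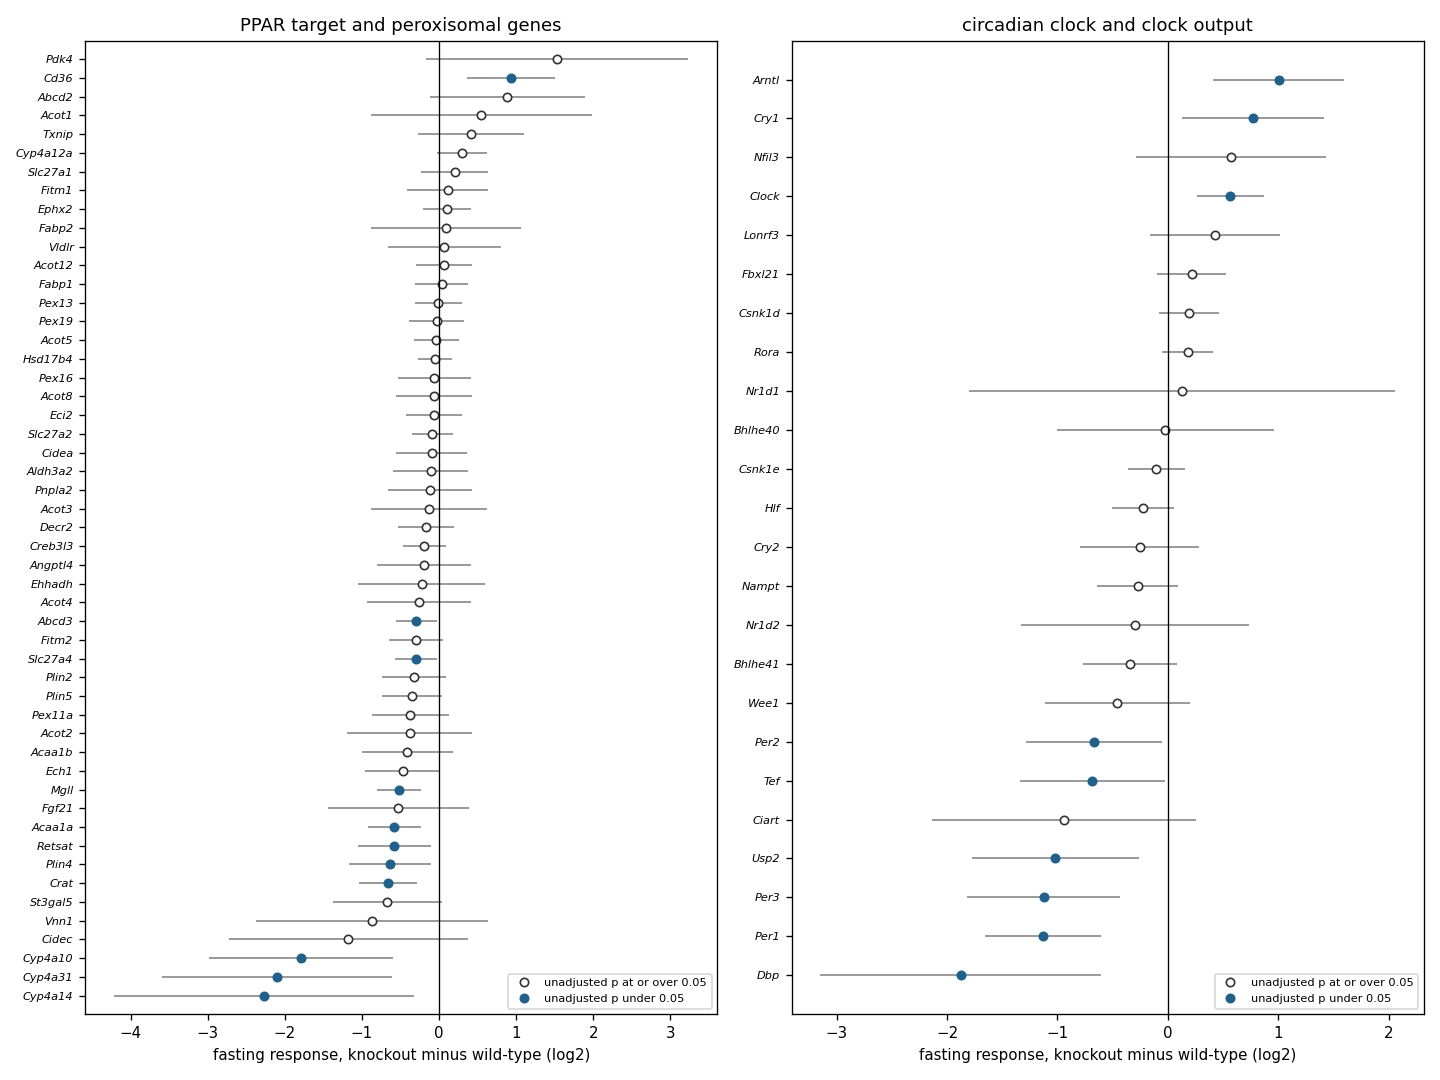
Difference of the fasting responses, knockout minus wild-type (log2), with 95% intervals as lines, for the PPAR target and peroxisomal genes (left) and the circadian clock and clock output genes (right). Cyp4a14, Cyp4a31 and Cyp4a10 lie lowest on the left, Dbp lowest and Arntl highest on the right, and no gene of either list passed after adjustment.

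Circadian clock and clock output genes lay to either side of 0. Of 24 measured, 3 had an unadjusted p under 0.05 above 0 (12.5%, against 5.6%) and 6 below 0 (25.0%, against 6.64%). The median was -0.24, and -0.08 without knockout fed mouse 3. The genes above 0 were Arntl and Clock, the activators of the clock, and Cry1, a repressor, at 1.00 ± 0.28, 0.57 ± 0.14 and 0.77 ± 0.30. The genes below 0 included Per1 and Per3 of the period repressors and the output factor Dbp, at -1.13 ± 0.25, -1.13 ± 0.33 and -1.88 ± 0.60. Among wild-type mice, Per1 was measured at 4.12, 4.02, 4.21 and 3.80 (log2 intensity) with food and 5.64, 5.94, 6.20, 6.00 and 6.09 after fasting. The knockout values were 5.06, 4.03, 4.79 and 4.87 with food and 5.47, 5.50 and 5.51 after fasting. Every fasted mouse lay above every fed mouse in Per1, and the knockout fasted mice lay below all wild-type fasted mice. Per1 rose by 1.94 ± 0.16 in wild-type (adjusted p = 1.47e-06) and 0.81 ± 0.19 in knockout mice (adjusted p = 0.021), and the difference had an adjusted p of 0.15. Without knockout fed mouse 2, the lowest of its group, the difference passed, at -1.35 (adjusted p = 0.0126), and without knockout fed mice 1 and 4 it was -0.86 (adjusted p = 0.309). Arntl fell by 1.52 ± 0.18 in wild-type mice (adjusted p = 6.99e-05), against -0.51 ± 0.21 in knockout mice (adjusted p = 0.233). Clock genes follow the hour of the day, and the hour at which each mouse was killed is not in the labels, so its part was not tested.

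Acute phase genes, which the liver makes in inflammation, had the lowest pathway median, -0.49 over 36 measured, and 10 had an unadjusted p under 0.05, all below 0 (27.8%, against 6.64%). This rested on knockout fed mice 1 and 4: without them the median was -0.10 and 4 had an unadjusted p under 0.05 below 0, against 6.53% of all genes. The mean level of the list was 1.10 and 1.56 in those mice, while mice 2 and 3 of that group had -0.42 and 0.20, and the other groups -0.49 to 0.27. Saa1, serum amyloid A1, reached 8.28, 3.87, 6.60 and 9.71 in the fed knockout group and 2.32 to 5.19 in the rest. Its difference of responses was -3.77 ± 1.27 (adjusted p = 0.281), or -1.89 without mice 1 and 4. Lcn2, lipocalin 2, gave -3.79 ± 1.30 and -1.74. Markers of neutrophils, another source of Lcn2, included 2 genes of the acute phase list, Lcn2 among them. The 16 others had a mean level of 0.15 and 0.11 in the same mice and -0.09 to 0.08 in the rest. Of the 18 genes 15 were dim, and their part in the result was not tested.

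Endoplasmic reticulum and heat shock stress genes were high in the same mice. Their median difference was -0.04 over 38 measured and 0.29 without knockout fed mice 1 and 4, where 13 had an unadjusted p under 0.05 above 0 (4.51% of all genes did so) and 0 below. Those mice were set apart by their high levels of these same genes, so the shift upward follows in part from that choice. The 13 genes are therefore given as a description only. The list's mean level was 0.86 and 0.60 in those mice, -0.06 and 0.11 in the other fed knockouts, -0.03 to 0.04 in knockout fasted mice and -0.36 to -0.23 in wild-type fasted mice. Pdia6, a protein disulfide isomerase, kept its direction in both fits. It was 9.51 to 9.72 in wild-type fed, 8.15 to 8.48 in wild-type fasted, 9.55 to 10.10 in knockout fed and 9.13 to 9.30 in knockout fasted mice, so that the knockout fasted mice lay above all wild-type fasted mice. Pdia6 fell by 1.32 ± 0.11 in wild-type and by 0.59 ± 0.12 in knockout mice, a difference of 0.73 ± 0.16 (adjusted p = 0.15), or 0.94 without mice 1 and 4, where the knockout change was -0.38 and did not pass (adjusted p = 0.165). Sdf2l1, a chaperone partner, had a difference of 0.43 ± 0.49 in all mice and 1.27 without them.

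**Figure D4:**
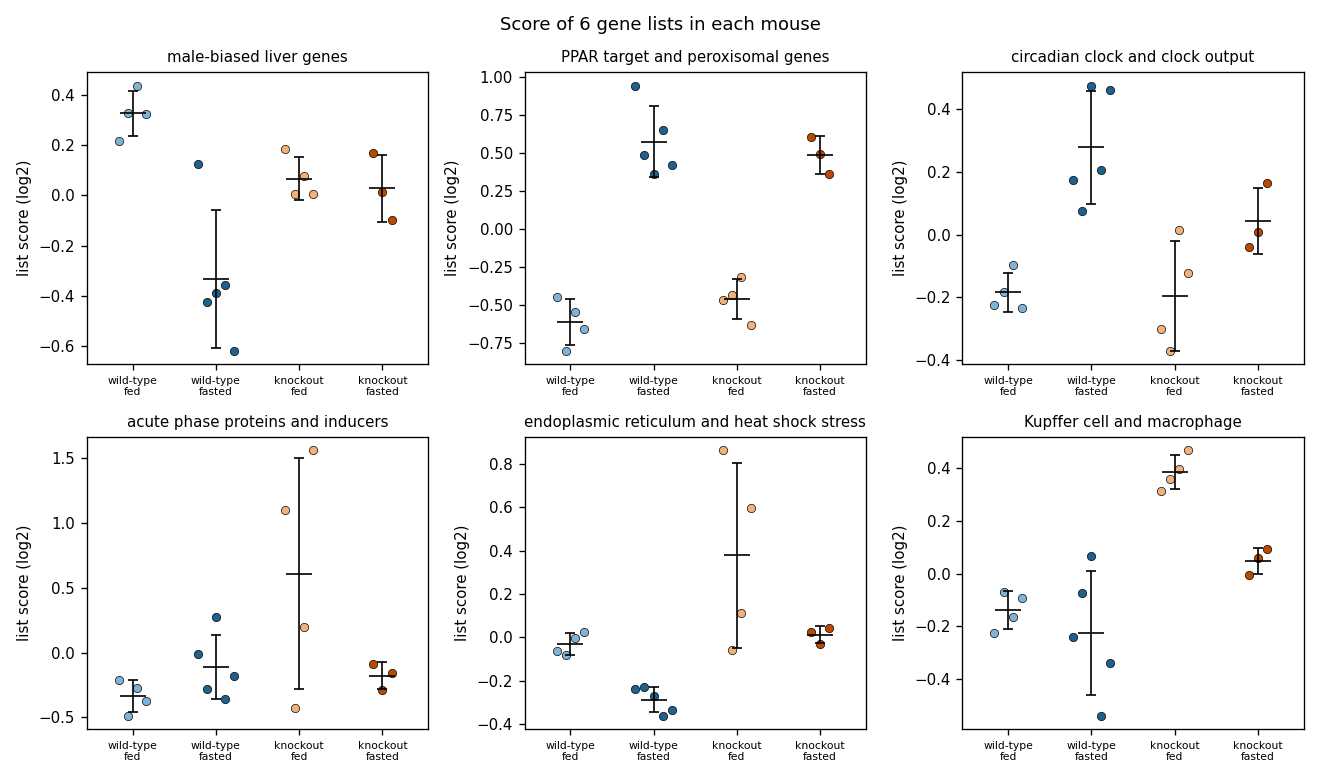
Mean level of 6 gene lists in each mouse (points), as the mean over the list of log2 intensity minus each gene's mean over all arrays, with the group mean and SD as bars. Knockout fed mice 1 and 4 are the high points in the acute phase and stress panels, and 4 of 5 wild-type fasted mice lie lowest in the male-biased panel.

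Interferon response genes had a median difference of -0.21 over 42 measured, with 7 below 0 (16.7%, against 6.64%) and 1 above 0 at an unadjusted p under 0.05, and -0.17 without knockout fed mice 1 and 4. The median fasting change of the list was -0.34 in wild-type and -0.64 in knockout mice. Knockout minus wild-type, its median was 0.60 with food and 0.46 after fasting, so the list was higher in knockout mice in both states. Oas2, an antiviral oligoadenylate synthetase, lay at 3.89, 3.97, 3.79 and 3.80 in the fed knockout group and at 2.69 to 3.36 in all others. Oas2 fell by 0.78 ± 0.14 with fasting in knockout mice (adjusted p = 0.00486), while the wild-type change was -0.02 ± 0.12, and the difference was -0.76 ± 0.18 (adjusted p = 0.175). Zbp1, a sensor of nucleic acids, fell by 0.95 ± 0.20 in knockout mice, with a difference of -0.81 ± 0.26 (adjusted p = 0.276). Bst2, the antiviral tetherin, fell in both genotypes, by 1.23 and by 0.67, a difference of 0.55 ± 0.22. The knockout changes of Zbp1 and Bst2 did not pass without knockout fed mice 1 and 4, at -0.65 (adjusted p = 0.144) and -0.71 (adjusted p = 0.0909). Kupffer cell and macrophage markers, the list that covers the liver's resident macrophages, had a median of -0.28 over 26 measured, with 23 below 0, as were 55.4% of all genes, and 5 below 0 at an unadjusted p under 0.05 (19.2%, against 6.64%). Their summed intensity was 1890 to 2036 in wild-type fed, 1580 to 2359 in wild-type fasted, 2496 to 2841 in knockout fed and 2131 to 2324 in knockout fasted mice. In whole liver RNA, fewer cells of a type and less RNA per cell cannot be told apart, and the part of these cells in the interferon values was not tested. Sinusoidal endothelial markers had a median of 0.23 over 24 measured, with 20 above 0, as were 44.6% of all genes, and 4 above 0 at an unadjusted p under 0.05 (16.7%, against 5.6%).

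Pancreas markers had a median of -0.62 over 18 measured, with all 18 below 0, as were 55.4% of all genes. Wild-type fasted mouse 5 had a mean level of 1.73, the others had -0.24 to 0.22, and 10 of the 18 were dim. Without that mouse the median was -0.28.

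**Figure D5:**
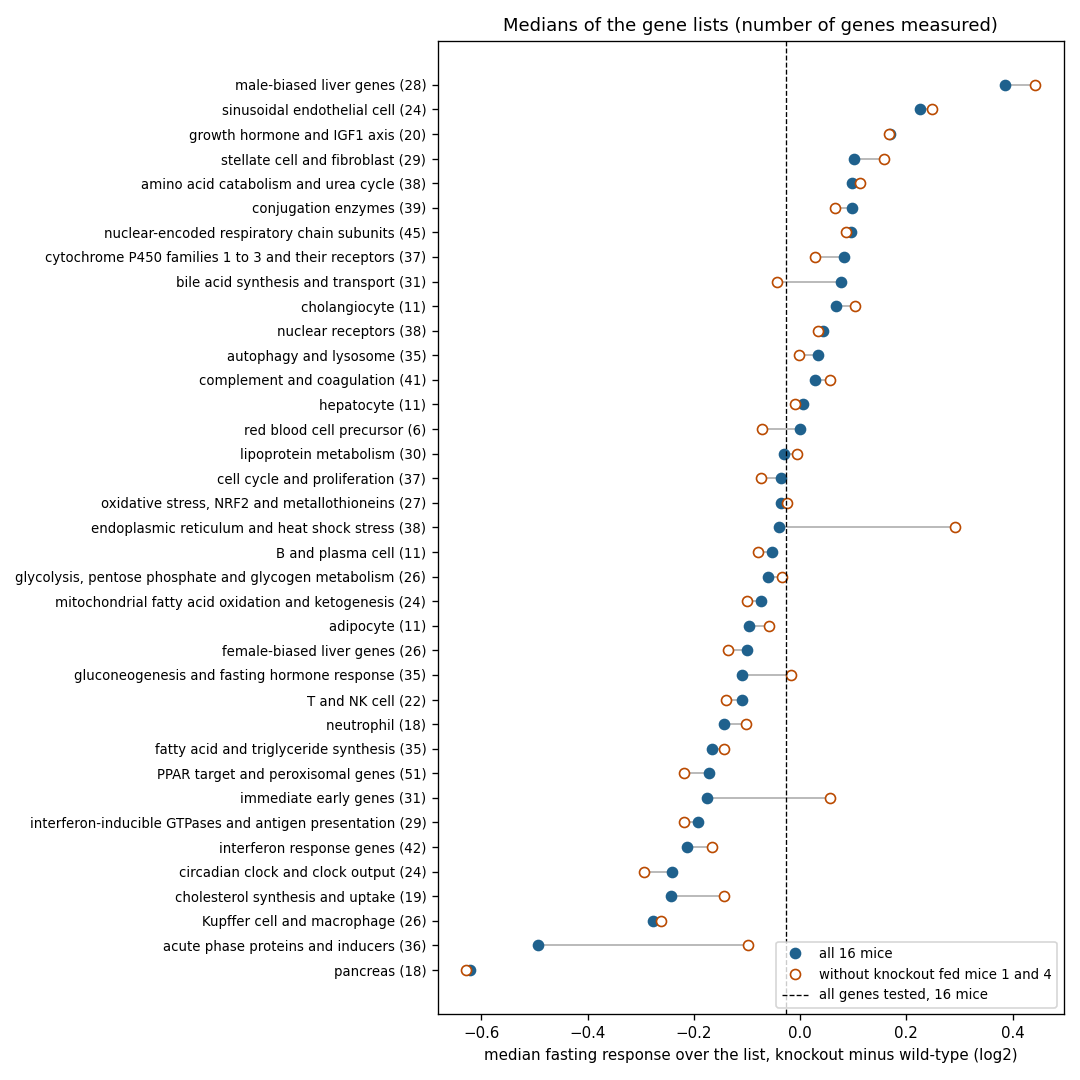
Median difference of the fasting responses, knockout minus wild-type (log2), of each of 37 gene lists over all mice (filled) and without knockout fed mice 1 and 4 (open), with the number of genes measured in brackets. The dashed line is the median of all genes, -0.03, and the acute phase and stress lists move furthest between the 2 sets of mice.

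Interferon-inducible GTPases and antigen presentation genes had a median of -0.19 over 29 measured, or -0.22 without knockout fed mice 1 and 4. At an unadjusted p under 0.05, 7 lay below 0 (24.1%, against 6.64%). Without those mice 3 of the 29 did so, against 6.53% of all genes. Immediate early genes, which respond to stimuli within minutes, had a median of -0.18 over 31 measured, or 0.06 without those mice. Amino acid catabolism and urea cycle genes had a median of 0.10 over 38 measured, with 5 above 0 (13.2%, against 5.6%) and 1 below (2.63%, against 6.64%) at an unadjusted p under 0.05. Without knockout fed mice 1 and 4 the median was 0.11 and 26 of the 38 lay above 0. At an unadjusted p under 0.05, 2 then lay above 0, as did 4.51% of all genes. Nuclear-encoded respiratory chain subunits had a median of 0.10 over 45, with 37 above 0 (44.6% of all genes were) and 5 above 0 at an unadjusted p under 0.05 (11.1%, against 5.6%). Bile acid synthesis and transport genes had 0.08 over 31 measured, or -0.04 without knockout fed mice 1 and 4, and gluconeogenesis and fasting hormone genes -0.11 over 35, or -0.02 without them. Pck1, the gluconeogenic carboxykinase, rose by 0.88 ± 0.14 with fasting in wild-type mice. Its knockout change was 0.53 ± 0.16 (adjusted p = 0.0778), and the difference was -0.35 ± 0.21 (95% interval -0.79 to 0.10). Cytochrome P450 genes of families 1 to 3 had a median of 0.08 over 37 measured.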

How the data were processed

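Liver RNA of 16 mice was measured, 1 Affymetrix whole-transcript array each, and groups were taken from the sample titles. The deposited values are probe set intensities on a linear scale, which the authors made with RMA per the submitters' processing notes, and log2 was taken of these deposited values. The array's genome build was not given in the sources used here. Array median intensities ran from 8.08 to 8.61. Of 35519 probe sets, 21780 with 1 gene symbol were used, and the brightest stood for a gene, leaving 19935 genes. Precision is limited by the number of arrays.

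All arrays entered 1 fit of 4 group means in limma 3.58.1 (R 4.3.3, lmFit and eBayes), with 12 residual and 4.55 prior degrees of freedom. Tests were two-sided, with Benjamini-Hochberg adjustment over all genes, and values after ± are standard errors unless marked SD. The fit was tested on simulated data.

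The genes and lists were chosen with earlier results of these data known. The rule named Ppard, Ppara and Pparg, and up to 12 called genes in each direction, filled to 5 by the smallest unadjusted p, without predicted loci. Genes outside it were chosen after their values were seen. Lists were described by counts and medians, without a test. Replicates are labelled biological replicates. The closing section gives the alternatives.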

Additional observations from a re-analysis of the deposited data

Results flagged for a closer look

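Hsd3b5 was the gene with the smallest p among those whose fasting response differed between genotypes by a test of the difference itself: 2.72 on the log2 scale. Tc2n was the other, at 0.95, on values near the dim end of the array throughout.

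The levels of 13 named genes and of 37 gene lists were examined in the 3 groups of 4 or 5 mice. A mouse lay far from the others in 8 of these 150 sets of values (5.33%), and chance sets a mouse apart in about 1 of 20. Grrp1 in wild-type fed mouse 3 was 3.30 on the log2 scale, against 3.16 to 3.18 in the other 3. The mean level of the interferon response genes in wild-type fasted mouse 3 was -0.19, against -0.54 to -0.46 in the other 4. That of the pancreas markers in wild-type fasted mouse 5 was 1.73, against -0.20 to 0.22. That of the bile acid genes in wild-type fasted mouse 1 was -0.05, against 0.09 to 0.12. The fatty acid and triglyceride synthesis genes in knockout fed mouse 2 had a mean level of 0.20, against 0.36 to 0.37, and the cytochrome P450 genes in knockout fed mouse 3 one of 0.17, against -0.04 in the other 3. In wild-type fed mice, the cholesterol genes in mouse 4 had 0.23, against up to 0.69, and the red blood cell precursor markers in mouse 1 had -0.16, against 0.01 to 0.03.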

How the results depend on the processing

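The count of 2 genes was also 2 with quantile normalization, arrays centred on a common median, the median over probe sets of each gene, array weights, and an adjusted p under 0.1. It was 1 with dim genes left out (Hsd3b5), 1 with an intensity trend and robust variance (Tc2n), and 1 over all probe sets, a probe set without a gene symbol. Without knockout fed mice 1 and 4 it was 1, Trim12a at -1.64 on the log2 scale (adjusted p = 0.00985), and 1 when wild-type fasted mouse 5 was left out as well. Trim12a was 1.91, 3.50, 4.03 and 3.35 in knockout fed mice. Leaving out 1 mouse at a time gave 0 to 8 genes. There were 0 without wild-type fed mouse 3 or 4, wild-type fasted mouse 3 or 4, knockout fed mouse 4, or any knockout fasted mouse, 1 without wild-type fasted mouse 1 or knockout fed mouse 1, 5 without knockout fed mouse 2 (Per1 and Alas1 among them), 7 without wild-type fed mouse 1 and 8 without knockout fed mouse 3. Hsd3b5 ran from 2.28 to 2.93 over 27 alternatives (adjusted p 0.0019 to 0.167) and Tc2n from 0.87 to 1.05 over 26 (adjusted p 0.00146 to 0.269). The other 11 named genes passed in 3 of 296 values and changed sign in 7. The 3 were Abcb1b without wild-type fed mouse 2, Camk2d without wild-type fasted mouse 2 and Gpsm3 without knockout fed mouse 3. The cause of these changes was not tested.

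With the replicate number as a block the count was 1, Hsd3b5 at 2.43 (adjusted p = 0.0109). Deviations of same-numbered mice correlated at -0.25 to 0.23 over 21 pairs, with a median of 0.07. Of the 16 arrays, 4 correlated best with their own number. Whether the numbers pair the mice or mark a batch is not known. Medians of 10 lists were recomputed under the same alternatives after the data were seen, and 8 of 250 moved by more than the spread between replicates: the female-biased list (-0.03 with centred arrays, -0.18 without dim genes), the clock list (-0.08 without knockout fed mouse 3), the macrophage list (-0.38 with the block), and, without knockout fed mice 1 and 4 and then also without wild-type fasted mouse 5, the acute phase list (-0.10, -0.14) and the stress list (0.29, 0.24). Centring the arrays also moved the median of all genes, from -0.03 to 0.05, so the distance of the female-biased list from it stayed alike. The deposited values carry no background level, so whether dim genes such as Tc2n were above background is not known.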

Other observations

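Some genes outside the lists' main themes, chosen after their values were seen, had differences of responses that did not pass (adjusted p = 0.15 each). Alas1, the rate-limiting enzyme of heme synthesis, was 8.98, 8.70, 8.30 and 7.68 in wild-type fed, 10.24, 9.88, 10.21, 10.52 and 10.70 in wild-type fasted, 10.43, 8.96, 10.39 and 9.99 in knockout fed, and 9.21, 10.02 and 9.95 in knockout fasted mice. Alas1 rose by 1.89 ± 0.30 with fasting in wild-type mice (adjusted p = 0.000612), its knockout change was -0.21 ± 0.34 (adjusted p = 0.851), and the difference was -2.11 ± 0.45. It passed without knockout fed mouse 2, at -2.44 (adjusted p = 0.0353). Coq5, a methyltransferase of coenzyme Q synthesis, fell by 0.51 in wild-type mice, and its difference was 0.82 ± 0.17. Acadsb, a dehydrogenase of branched-chain acyl-CoA, fell by 0.46 in wild-type mice, with a difference of 0.62 ± 0.13. Sall1, a zinc finger transcription factor, rose in both genotypes, by 1.53 and 0.64, a difference of -0.89 ± 0.20. The knockout rise did not pass without knockout fed mice 1 and 4, at 0.61 (adjusted p = 0.103).

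Genes of fat and glycogen handling gave further values with wide errors. Ppp1r3c, a glycogen-targeting subunit of protein phosphatase 1, fell by 1.65 ± 0.42 with fasting in wild-type mice (adjusted p = 0.0183), and its difference was 2.21 ± 0.63 (adjusted p = 0.228). Angptl8, an insulin-induced inhibitor of lipoprotein lipase, fell by 1.98 ± 0.36 in wild-type mice, with a difference of 1.73 ± 0.54 (adjusted p = 0.261). Lpl, the lipoprotein lipase, fell by 1.46 ± 0.35 in wild-type mice, with a difference of 1.53 ± 0.53, and Lipg, the endothelial lipase, rose by 1.94 ± 0.23, with a difference of -1.16 ± 0.35 (adjusted p = 0.248).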
